A study of Mus musculus with 8 samples.

Results

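The genes described here are 10 genes known from the cerebellum: Cbln1, Cbln3, Fat2, Zic1, Zic2, Zic4, Barhl1 and En2, known from granule cells or their lineage, and Pcp2 and Car8, known from Purkinje cells. They were chosen by name, and all 10 were found among the 57186 genes listed for each library. The libraries were made from total RNA of mouse brain, 4 from mice labelled Akap11 conditional knockout (cKO) and 4 from mice labelled control. Akap11 encodes an anchoring protein of protein kinase A. The sources used here name the tissue as brain, with no region. They give no age, sex, recombinase line, deleted exons or control genotype, and do not tie a library to 1 animal, so p-values measure the spread over libraries, which may be technical. The genes are described for what they show of the tissue in each library, for their spread between libraries, and for cKO against control.

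Granule cells are the small excitatory neurons of the cerebellum and the most numerous neurons of the mouse brain, and Purkinje cells are the large inhibitory neurons on which they synapse. Granule cell axons secrete cerebellins, which bind neurexins on the axon and a receptor on the Purkinje cell and hold the synapse together. Several of the 10 genes are also known from other regions. Cbln1 is transcribed in parts of the thalamus, Zic genes in the septum, the thalamus and the meninges, Barhl1 in the hypothalamus and midbrain, and En2 in the midbrain. Cbln3, Fat2 and, for Purkinje cells, Pcp2 are more narrowly cerebellar within the brain.

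Reads in genes numbered 13841218 to 19991942 in the cKO libraries and 15752877 to 19818313 in the control libraries. A level is given in CPM, which divides a gene's reads by all reads in genes of its library and scales every library to the same total. Genes took 63.8% of the listed reads in cKO replicate 1 and 73.7% to 79.7% elsewhere. Akap11 itself was at 220, 213, 240 and 242 CPM in cKO replicates 1 to 4 and at 365, 311, 315 and 292 CPM in control replicates 1 to 4, so that every cKO library lay below every control library. This is a log2 fold change, cKO minus control, of -0.50, with SE 0.0694 and an edgeR adjusted p of 0.0103.

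Of the 10 cerebellar genes, 9 had enough reads for the test between cKO and control, and none of the 9 passed it (edgeR, adjusted p under 0.05), which 0.0239% of all genes passed, 0.0119% in each direction. Both the number of reads and the spread between libraries limit how precisely each gene was measured. Zic1, Cbln1 and Zic2 averaged 20 CPM or more over the 8 libraries, and Car8 and Zic4 between 3 and 20 CPM. En2, Cbln3, Fat2, Barhl1 and Pcp2 averaged under 3 CPM. En2 and Cbln3 each had 367 reads in all, but their log2 fold changes had SEs of 0.217 and 1.27. Together the 10 genes took between 0.0119% and 0.0138% of the reads in genes in cKO libraries and between 0.0118% and 0.017% in control libraries. Among the low genes, 207 of 367 Cbln3 reads and 99 of 266 Fat2 reads came from a single library, control replicate 2.

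Levels were set between genes per kilobase (kb) of the longest annotated transcript. On this scale Zic1 (mean 9.48 CPM per kb over 8 libraries, range 7.95 to 11.1), Zic2 (9.47, range 8.56 to 10.5) and Cbln1 (8.79, range 7.77 to 11.3) overlapped. Car8 followed at 3.57 CPM per kb and Zic4 at 2.11, each with a range clear of its neighbours. En2 (0.725), Cbln3 (0.562), Barhl1 (0.385), Pcp2 (0.193) and Fat2 (0.134) came last, and each of these overlapped the next in range. The median of the 10 genes was 1.53 CPM per kb in cKO and 1.42 CPM per kb in control libraries. Medians of 10 other granule cell genes were higher, at 5.23 in cKO and 5.56 in control libraries. Those of 17 other Purkinje cell genes were 4.15 and 4.44, so the level found depends on the genes listed. Markers of some forebrain regions stood higher than the 10 genes. The medians were 12.9 in cKO and 13.6 in control libraries for 12 cortical genes. They were 21.1 and 21.6 for 10 striatal genes, and 6.14 and 6.77 for 10 thalamic genes. Medians of 10 hippocampal genes were 4.56 and 4.57, and those of 8 olfactory bulb genes 2.24 and 2.33. The 8 basal forebrain and septum genes stood lower than the 10 genes, at 1.37 in cKO and 1.12 in control libraries. Over the 8 libraries, the median of the 10 cerebellar genes was 11.7% ± 2.66 (SD, n = 8) of the cortical median. This share does not measure cerebellar content, because the 10 include genes also known from other regions, such as Zic1, Zic2 and Cbln1. The more narrowly cerebellar Cbln3, Pcp2 and Fat2 stood below the median of the 10, at 0.562, 0.193 and 0.134 CPM per kb. A list of 12 midbrain genes stood at 1.04 in cKO and 0.969 in control libraries, and 20 hindbrain and spinal cord genes at 0.039 in cKO and 0.0711 in control libraries, with 5 of the 20 at a mean of at least 1 CPM. In bulk RNA, fewer cells of a type and less RNA per cell cannot be told apart, and no library of cerebellum alone was analysed here to set the scale.

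**Figure D1:**
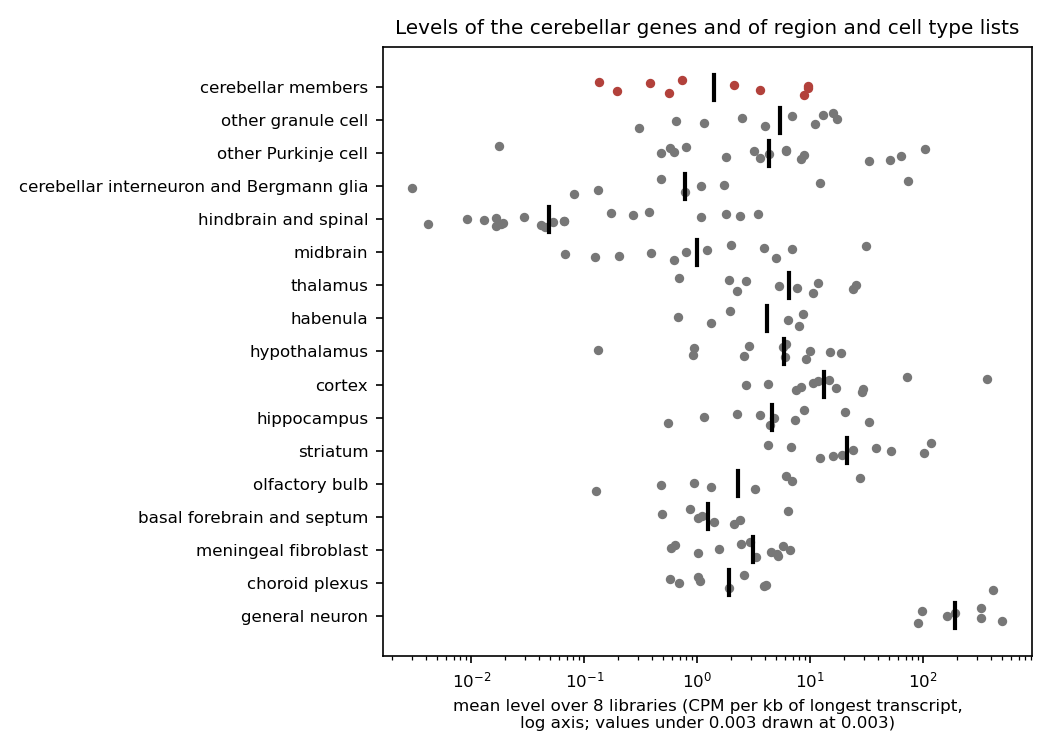
Mean level of each gene over 8 libraries, in CPM per kb of the longest transcript on a log axis, for the 10 cerebellar genes (red) and for region and cell type lists (grey), with the median of each list as a black bar. The cerebellar genes spread from 0.134 (Fat2) to 9.48 (Zic1), with a median below those of the cortical and striatal lists.

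Cbln1 encodes the cerebellin that bridges neurexin and the receptor on the Purkinje cell. It was at 23.3, 25.4, 22.8 and 24.1 CPM in cKO replicates 1 to 4 and at 22, 31.5, 26 and 21.7 CPM in control replicates 1 to 4. Control replicate 2 was the highest of the 8 libraries, and the groups overlapped. The group levels were 23.9 ± 1.14 CPM in cKO and 25.3 ± 4.58 CPM in control brain (SD, n = 4). On the log2 scale cKO minus control was -0.09 (95% interval -0.31 to 0.13, edgeR adjusted p 0.913). In cKO libraries the coefficient of variation (CV, the SD as a share of the mean) was 4.76%, close to the 4.82% that counting alone gives at this depth, while in control libraries it was 18.1%, against 4.74% from counting. Without control replicate 2 the difference was 0.03.

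Cbln3 encodes a cerebellin that is secreted only as a complex with Cbln1. It had 7, 16, 13 and 72 reads in cKO replicates 1 to 4, or 0.506, 0.8, 0.661 and 3.94 CPM. Control replicates 1 to 4 had 13, 207, 24 and 15 reads, or 0.778, 13.1, 1.28 and 0.757 CPM. Control replicate 2 stood far above the other libraries, cKO replicate 4 came next, and the remaining 6 lay at or below 1.28 CPM. The level in control replicate 2 was 3.34 times the next highest library and 16.9 times the median of the other 7. The group levels of 1.48 ± 1.64 CPM in cKO and 3.99 ± 6.11 CPM in control brain (SD, n = 4) each rested on 1 high library. Without these 2 libraries they were 0.656 ± 0.147 CPM in cKO and 0.938 ± 0.296 CPM in control brain (SD, n = 3). The fitted log2 fold change of -1.37 had an SE of 1.27 and a 95% interval from -4.47 to 1.72 (edgeR adjusted p 0.905). It was 0.65 without control replicate 2, -2.53 without cKO replicate 4 and -0.50 without both.

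Fat2, a giant protocadherin of granule cell axons, had 1.52, 1, 1.58 and 1.86 CPM in cKO replicates 1 to 4. In control replicates 1 to 4 it had 0.718, 6.28, 2.03 and 0.555 CPM. Control replicate 2 was again the highest, at 3.1 times the next library, while the cKO libraries differed little from one another and lay within the control range. The groups stood at 1.49 ± 0.358 CPM in cKO and 2.4 ± 2.67 CPM in control brain (SD, n = 4). On the log2 scale the difference was -0.66 (95% interval -2.48 to 1.15, edgeR adjusted p 0.913). Without control replicate 2 it was 0.42. Of the 15254 genes with a mean of at least 1 CPM, ranked by the level in control replicate 2 over that in the next highest library, Cbln3 stood first (rank 1) and Fat2 came directly after it (rank 2). Car8 had rank 55, Cbln1 rank 79 and Zic1 rank 316, while En2 (11817) and Barhl1 (14912) stood far down. This ranking was made after the values were seen and is a description of 1 library.

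The promoters of the 2 genes that share this unevenness are printed with that of Zic1, the cerebellar gene with the highest level in these libraries, for comparison. The sequences are from RefSeq on GRCm38.p6, from 250 bases before to 50 bases after the annotated start, and run 5′ to 3′ on the gene's own strand, which is the minus strand for all 3. Capitals mark matches to CANNTG, the E-box bound by basic helix-loop-helix factors, which reads the same on both strands.
Cbln3, chr14:55884207-55884506: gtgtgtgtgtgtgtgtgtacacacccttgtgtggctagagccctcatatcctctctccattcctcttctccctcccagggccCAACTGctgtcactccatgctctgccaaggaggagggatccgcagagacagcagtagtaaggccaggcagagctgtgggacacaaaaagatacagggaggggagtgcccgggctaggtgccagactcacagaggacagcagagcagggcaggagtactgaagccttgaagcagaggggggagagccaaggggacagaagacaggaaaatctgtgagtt
Fat2, chr11:55312208-55312507: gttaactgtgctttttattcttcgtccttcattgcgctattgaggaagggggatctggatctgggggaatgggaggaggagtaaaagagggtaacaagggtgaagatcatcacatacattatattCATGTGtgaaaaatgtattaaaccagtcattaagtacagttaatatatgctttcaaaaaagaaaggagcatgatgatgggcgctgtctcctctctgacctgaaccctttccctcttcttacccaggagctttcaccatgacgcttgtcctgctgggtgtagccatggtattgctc
Zic1, chr9:91365719-91366018: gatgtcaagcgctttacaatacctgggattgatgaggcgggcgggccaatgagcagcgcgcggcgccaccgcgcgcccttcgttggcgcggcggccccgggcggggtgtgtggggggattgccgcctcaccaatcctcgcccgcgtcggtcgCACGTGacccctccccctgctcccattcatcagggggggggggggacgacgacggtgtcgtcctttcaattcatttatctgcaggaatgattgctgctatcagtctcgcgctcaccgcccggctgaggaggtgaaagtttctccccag
Each of the 3 held 1 match, and 72.3% of the 32851 mouse promoters of this length held at least 1. The promoters of Cbln3 and Fat2 held 2 and 4 CpG dinucleotides, below the median of 7 over all promoters. That of Zic1 held 31, and 89.4% of promoters held fewer. These are descriptions of the sequence windows. Promoters for 6 of the 10 genes were matched in the table used.

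**Figure D2:**
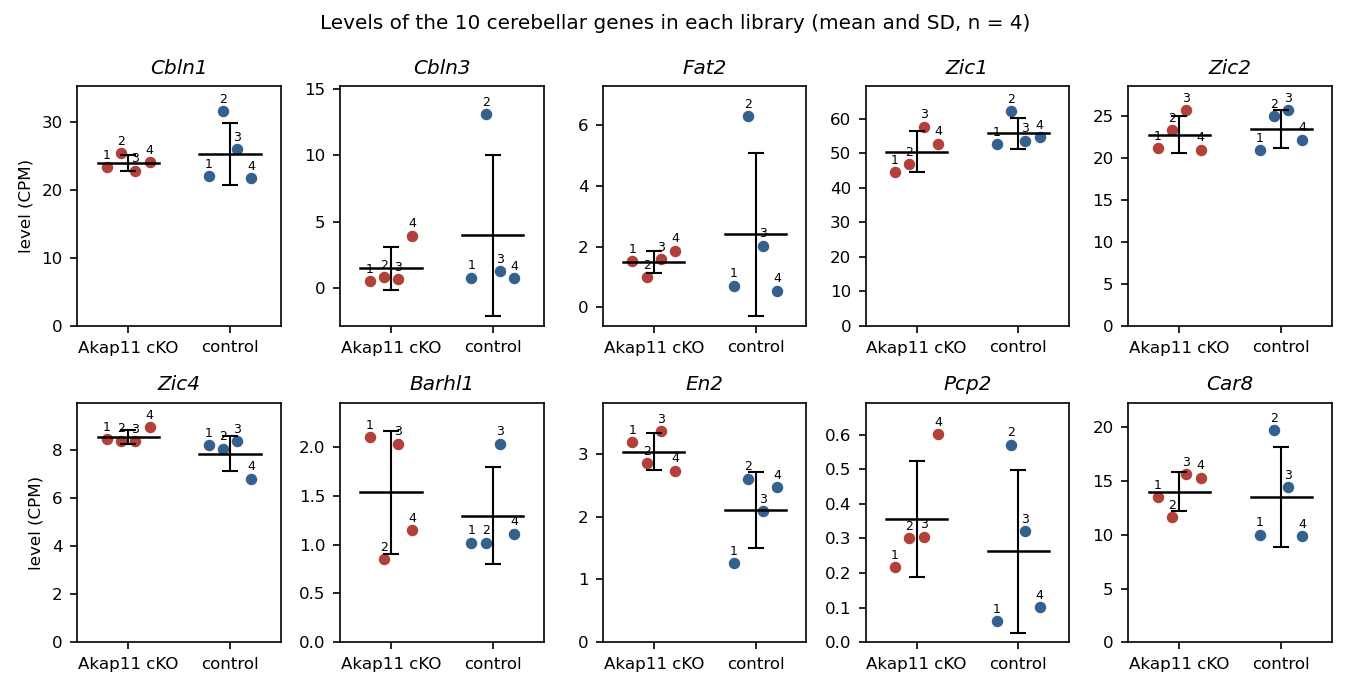
Level of each of the 10 genes in CPM in the 4 Akap11 cKO libraries (red, left) and the 4 control libraries (blue, right), 1 point per library marked with its replicate number; bars are the mean and SD (n = 4). Control replicate 2 is the highest library for Cbln3 (13.1 CPM) and Fat2 (6.28 CPM), and cKO replicate 4 is the highest cKO library for Cbln3 (3.94 CPM).

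Zic1, a zinc finger transcription factor of granule cell precursors and of dorsal neural tissue, had the highest mean level of the 10 genes, with and without length scaling. It was at 44.6, 46.9, 57.7 and 52.8 CPM in cKO replicates 1 to 4 and at 52.6, 62.3, 53.7 and 54.6 CPM in control replicates 1 to 4. cKO replicates 1 and 2 lay below all controls, and the groups overlapped. The means were 50.5 ± 5.93 CPM in cKO and 55.8 ± 4.41 CPM in control brain (SD, n = 4). In log2 terms cKO differed from control by -0.15 (95% interval -0.32 to 0.01), with an unadjusted edgeR p of 0.0708 and an adjusted p of 0.889.

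Zic2, its paralog on chromosome 14, was at 21.2, 23.3, 25.7 and 21 CPM in cKO replicates 1 to 4 and at 20.9, 25, 25.7 and 22.2 CPM in control replicates 1 to 4. Both groups spanned nearly the same range. Its log2 fold change, -0.05, had a 95% interval from -0.24 to 0.14 (edgeR adjusted p 0.945).

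Zic4 lies beside Zic1 on chromosome 9, on the opposite strand. It was at 8.45, 8.4, 8.39 and 8.97 CPM in cKO replicates 1 to 4 and at 8.2, 8.06, 8.37 and 6.81 CPM in control replicates 1 to 4. The 4 cKO libraries lay just above the 4 controls on this scale (8.389 against 8.373 CPM at the closest point), but overlapped them once libraries were scaled by TMM (8.279 against 8.378). The fitted difference was 0.11 in log2 (95% interval -0.13 to 0.36, edgeR adjusted p 0.911). The CV of 3.24% among cKO libraries was below the 8.07% expected from counting. Zic1 and Zic4 share 60 exon bases on opposite strands, and whether reads were counted by strand is not stated. The paralog Zic5 was at 6.52 ± 1.35 CPM in cKO and 5.93 ± 0.83 CPM in control brain (SD, n = 4) and did not pass the test.

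Barhl1, a homeodomain factor that follows Atoh1 in the granule cell lineage, had few reads, 17 to 40 per cKO library and 16 to 38 per control library. It was at 2.1, 0.85, 2.03 and 1.15 CPM in cKO replicates 1 to 4 and at 1.02, 1.02, 2.03 and 1.11 CPM in control replicates 1 to 4. cKO replicates 1 and 3 and control replicate 3 were high and the other 5 libraries were low, so that the high libraries came from both groups. A log2 difference of 0.20 came with a 95% interval from -0.48 to 0.88 (edgeR adjusted p 0.931). Its CV of 41% in cKO and 38% in control libraries was above the 19.3% and 20.7% that counting gives.

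En2, the engrailed homeodomain factor of the midbrain and cerebellum, was at 3.18, 2.85, 3.36 and 2.73 CPM in cKO replicates 1 to 4, from 44 to 66 reads. It was at 1.26, 2.6, 2.08 and 2.47 CPM in control replicates 1 to 4, from 21 to 49 reads. Every cKO library lay above every control library, with control replicate 1 the lowest of all. The means were 3.03 ± 0.288 CPM in cKO and 2.1 ± 0.606 CPM in control brain (SD, n = 4). Their log2 fold change of 0.51 (95% interval 0.06 to 0.97) had an unadjusted edgeR p of 0.0282 and did not pass over all genes (adjusted p 0.889). A two-sided exact permutation test of the CPM values gave p = 0.0286, the smallest possible for 4 against 4. Groups that did not overlap in CPM were seen for 2 of the 9 genes tested, En2 and Zic4, both higher in cKO. Among all 16766 genes tested this held for 2.89%, 1.72% with cKO higher and 1.17% with cKO lower. On TMM-scaled CPM it held for En2 (2.714 against 2.608 CPM at the closest point) and not Zic4, and for 1.57% of all genes with cKO higher and 1.39% with cKO lower. Without control replicate 1 the log2 fold change was 0.35, with an unadjusted edgeR p of 0.102 and an adjusted p of 1. Its paralog En1 was at 1.76 ± 0.634 CPM in cKO and 1.51 ± 1.1 CPM in control brain (SD, n = 4), a log2 difference of 0.17 with an SE of 0.402. Of 10 tested midbrain genes, 9 had a log2 fold change above 0, where 8588 of all 16766 genes lay above 0. Of the 10, 0 were called and 1, Aldh1a1, had an unadjusted edgeR p under 0.05. Of all genes, 4.78% had such a p, 2.87% with cKO higher. The median log2 fold change of the 10 midbrain genes was 0.12, against 0.0034 over all genes tested. The summed level of the 12 midbrain genes was 133 to 158 CPM in cKO libraries and 118 to 153 CPM in control libraries, with the lowest sum in control replicate 1. The 4 of these genes with the highest levels were Aldh1a1, an aldehyde dehydrogenase gene (77.7 ± 5.06 CPM in cKO and 68.9 ± 7.89 CPM in control brain, SD, n = 4), and genes of dopamine neurons. Their log2 fold changes were 0.16 for Aldh1a1, 0.10 for the dopamine transporter gene Slc6a3, 0.10 for the vesicular transporter gene Slc18a2 and 0.01 for the tyrosine hydroxylase gene Th. Their part in the difference of En2 was not tested.

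Pcp2, a modulator of G proteins in Purkinje cells, had 3, 6, 6 and 11 reads in cKO replicates 1 to 4 and 1, 9, 6 and 2 reads in control replicates 1 to 4. These are levels of 0.217, 0.3, 0.305 and 0.601 CPM in cKO and 0.0599, 0.571, 0.32 and 0.101 CPM in control libraries. The 2 highest were cKO replicate 4 and control replicate 2, the libraries that were also highest for Cbln3. The exact 95% Poisson interval of those counts ran from 5.49 to 19.7 reads in cKO replicate 4 and from 4.12 to 17.1 reads in control replicate 2, which covers counting error only. Pcp2 was the 1 gene of the 10 left out by the low-count filter. With no filter its log2 fold change was 0.46 (SE 0.622, 95% interval -0.76 to 1.68, edgeR adjusted p 0.849). It shares 941 of 1828 exon bases with Pet100 on the opposite strand, which had 1162 reads in all against 44 for Pcp2, and without strand the reads of such a pair cannot be told apart.

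Car8 encodes a carbonic anhydrase-related protein without enzyme activity that binds the inositol trisphosphate receptor of Purkinje cells. It was at 13.5, 11.6, 15.6 and 15.3 CPM in cKO replicates 1 to 4 and at 10, 19.7, 14.4 and 9.89 CPM in control replicates 1 to 4. Control replicate 2 was highest, control replicates 1 and 4 were lowest, and the cKO libraries lay in between. The groups stood at 14 ± 1.85 CPM in cKO and 13.5 ± 4.63 CPM in control brain (SD, n = 4). The groups differed by 0.05 in log2 (95% interval -0.38 to 0.49, edgeR adjusted p 0.973), and by 0.28 without control replicate 2. The CV in control libraries was 34.3%, against 6.51% from counting. Per kb, Car8 stood at 3.64 CPM in cKO and 3.5 CPM in control brain, below its relatives Car10 (39.6 CPM per kb in cKO and 38.9 in control brain) and Car11 (94.9 in cKO and 82.9 in control brain) and below the receptor gene Itpr1 (60.4 in cKO and 67.3 in control brain). None of these passed the test, with log2 fold changes of 0.01 for Car10, 0.19 for Car11 and -0.17 for Itpr1. Car11 and Itpr1 had an unadjusted edgeR p under 0.05 (0.0126 and 0.0221, adjusted p 0.889 for both), as 4.78% of all genes had.

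**Figure D3:**
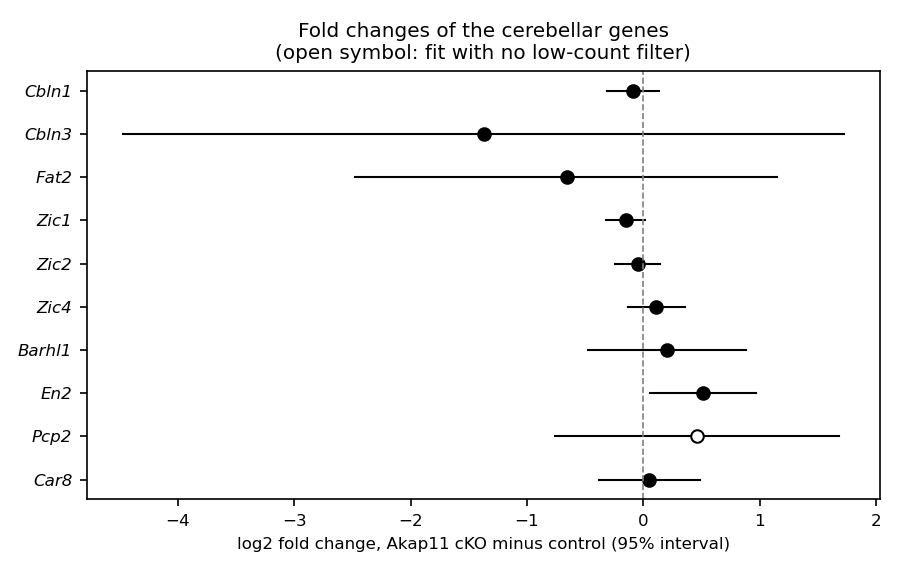
Log2 fold change, Akap11 cKO minus control, of each of the 10 genes with its 95% interval from edgeR; the open symbol (Pcp2) is from the fit with no low-count filter. Every interval except that of En2 (0.06 to 0.97) includes 0, and those of Cbln3 and Fat2 are the widest.

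By edgeR's quasi-likelihood test, 0 of the 9 genes tested passed, and 1 of the 9, En2, had an unadjusted p under 0.05. Of all genes, 4.78% had such a p, 2.87% with cKO higher and 1.91% with cKO lower. Limma voom also called 0 of the 9 and 0.0119% of all genes. DESeq2 and edgeR with no low-count filter, which take in Pcp2, called 0 members, with 0.0124% and 0.0217% of all genes called. DESeq2 gave no p for Cbln3. Of the 9, 4 had a log2 fold change above 0 and 5 below, with a median of -0.05. The intervals bound the change most tightly for the 3 genes with the most reads. The fold was between 0.803 and 1.01 for Zic1, between 0.848 and 1.1 for Zic2 and between 0.809 and 1.09 for Cbln1. For Cbln3 it lay between 0.0451 and 3.3, so that the interval takes in a large fall as well as a rise of up to 3.3 fold.

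Across libraries, control replicate 2 held the highest level of 5 of the 10 genes and was the highest control library for 7. The share of all genes highest in this library is not given here, so these counts are only a description. Gabra6, the granule cell subunit of the GABA-A receptor, had 0, 2, 3 and 17 reads in cKO replicates 1 to 4 and 0, 71, 7 and 0 reads in control replicates 1 to 4. It is singled out after its values were seen. A count of 0 allows up to 3 reads as a one-sided limit, or up to 0.217 CPM in cKO replicate 1, 0.18 CPM in control replicate 1 and 0.151 CPM in control replicate 4. The 2 libraries with the most Cbln3 reads thus also had the most Gabra6 reads. For each Cbln3 read there were 0.236 Gabra6 reads and 0.472 Fat2 reads in cKO replicate 4, against 0.343 and 0.478 in control replicate 2. In the other 6 libraries Fat2 gave 0.733 to 3 reads per Cbln3 read, and Gabra6 gave 0 to 0.292. The Gabra6 ratio in cKO replicate 3 (0.231) and control replicate 3 (0.292) was near that of the 2 libraries. These 2 were picked for high Cbln3, the divisor, which by itself lowers such ratios. Ppp1r17, a Purkinje cell phosphatase inhibitor also named after its values were seen, was at 1.59 CPM in cKO replicate 4 and 2.92 CPM in control replicate 2, the 2 highest libraries, but at 0.15 to 1.32 CPM in the other cKO and 0.303 to 1.26 CPM in the other control libraries. Levels in cKO replicate 4 and control replicate 2 were the 2 highest for 1 of the 9 cerebellar genes tested (Cbln3), 1 of 9 other granule cell genes (Chn2) and 2 of 15 other Purkinje cell genes (Ppp1r17 and Homer3). Of all genes, 3.25% had this order, and most genes of each list did not.

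Granule cell genes with broader transcription and the highest levels varied less between libraries. Etv1, a transcription factor, was at 109 ± 6.11 CPM in cKO and 116 ± 6.66 CPM in control brain (SD, n = 4). Reln, encoding the secreted protein reelin, was at 74.7 ± 1.5 CPM in cKO and 85.1 ± 7.54 CPM in control brain, with every cKO library below every control library, as for 1.17% of all genes. Reln differed by -0.20 in log2 (SE 0.0682), with an unadjusted edgeR p of 0.00919 and an adjusted p of 0.889. The NMDA receptor gene Grin2c and the cerebellin gene Cbln2 had log2 fold changes of 0.11 and 0.03. Of the 9 other granule cell genes tested, 4 had a log2 fold change above 0 and 5 below, with a median of -0.0079 and 0 calls, and 1 (Reln) had an unadjusted p under 0.05. Among 15 tested Purkinje cell genes, 6 lay above and 9 below 0 (median -0.10), with 0 calls and 2 at an unadjusted p under 0.05, Itpr1 and Rora. Such a p with cKO lower was held by 1.91% of all genes. Rora, the nuclear receptor gene mutated in staggerer mice, differed by -0.24 in log2 (SE 0.0707, edgeR adjusted p 0.889). Calb1, encoding calbindin, differed by -0.10. All of these are also transcribed in the forebrain.

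Genes for the partners of the cerebellins were measured at higher read numbers than Cbln3. Grid1, a receptor gene, was at 88 ± 3.94 CPM in cKO and 86.8 ± 2.59 CPM in control brain (SD, n = 4), and Cbln4 at 26.9 ± 1.92 CPM in cKO and 26.3 ± 1.92 CPM in control brain. The neurexin genes Nrxn2 and Nrxn3 had log2 fold changes of -0.0013 and -0.17. Of the 11 genes of this pathway other than Cbln1 and Cbln3, 5 lay above and 6 below 0, and 0 were called. Nrxn3 had an unadjusted edgeR p of 0.0183 (adjusted p 0.889), and 1.91% of all genes had one under 0.05 with cKO lower. Every cKO library also lay below every control library for Nrxn3, as for 1.17% of all genes. Of 9 tested paralogs and partners of the Zic, engrailed, Barh and Fat genes, 4 lay above and 5 below 0, with 0 calls and 0 at an unadjusted p under 0.05. Per kb, Fat2 was at 0.102 CPM in cKO and 0.165 CPM in control brain, below Fat1 (4.11 in cKO and 4.2 in control brain), Fat3 (4.3 and 4.65) and Fat4 (1.09 in both).

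Barhl1 and some genes of the midbrain, hindbrain and hypothalamus shared another set of libraries, a pattern noticed after the values were seen. Tph2, encoding the serotonin-synthesising hydroxylase of raphe neurons, was at 20.3, 5.4, 15.7 and 3.66 CPM in cKO replicates 1 to 4 and at 0.838, 2.41, 19.8 and 3.68 CPM in control replicates 1 to 4. The serotonin transporter gene Slc6a4 was at 12.6, 3.15, 10 and 1.86 CPM in cKO and at 0.0599, 1.08, 9.07 and 2.37 CPM in control replicates. For both, and for Barhl1 and En1, cKO replicates 1 and 3 and control replicate 3 held the 3 highest levels, an order that 2.68% of all genes tested had. It was found for 1 of the 9 cerebellar genes, 2 of 6 tested hindbrain and spinal cord genes and 3 of 10 tested midbrain genes. Of 12 tested hypothalamic genes, 2 had it. So did 0 of 9 other granule cell genes, 1 of 15 other Purkinje cell genes and 1 of 7 cerebellar interneuron and glia genes. Slc6a5, the glycine transporter gene of hindbrain interneurons, was highest in control replicate 3 (19.3 CPM) and lowest in control replicate 1 (1.08 CPM). The summed level of the 20 hindbrain and spinal cord genes ran from 16.8 to 53 CPM in cKO and from 7.24 to 61.1 CPM in control libraries. Tph2 did not pass the test between cKO and control (log2 fold change 0.69, SE 1, edgeR adjusted p 0.928). In control replicate 2, where Cbln3 and Fat2 were highest, Tph2 and Barhl1 were among the low libraries.

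**Figure D4:**
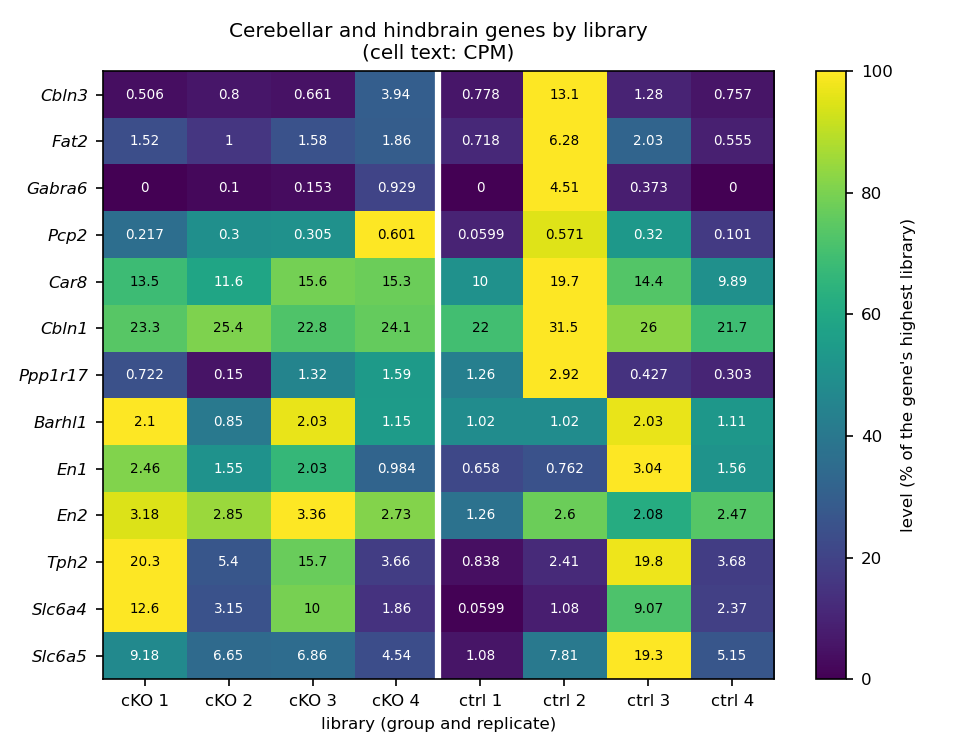
Level of cerebellar genes (upper rows) and of Barhl1, En1, En2 and raphe and hindbrain genes (lower rows) in the 4 Akap11 cKO libraries (left) and the 4 control libraries (right); colour gives the percent of the gene's highest library and the cell text gives CPM. Cbln3, Fat2 and Gabra6 peak in control replicate 2, whereas Barhl1, Tph2 and Slc6a4 are high in cKO replicates 1 and 3 and control replicate 3.

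Genes of other cell types that carry Zic transcripts were measured beside them. The summed level of 12 meningeal fibroblast genes was 144 to 151 CPM in cKO and 132 to 157 CPM in control libraries, and all 12 had a mean of at least 1 CPM. Control replicate 2, the library with the most Zic1, had the lowest of these sums (132 CPM). Of the 12 meningeal log2 fold changes, 6 lay above and 6 below 0, with 0 calls. An unadjusted edgeR p under 0.05 was found for 2 of the 12, both with cKO higher, as for 2.87% of all genes. The 10 thalamic genes summed to 302 to 316 CPM in cKO and 310 to 360 CPM in control libraries, with 9 of 10 log2 fold changes below 0 and 0 calls, where 8178 of all 16766 genes lay below 0. Lhx9 and Prkcd, 2 of these 10, had an unadjusted edgeR p under 0.05 (0.0241 and 0.0327, adjusted p 0.889 for both). Both were lower in cKO, and 1.91% of all genes had such a p with cKO lower. For Lhx9 every cKO library lay below every control library, as for 1.17% of all genes. The 8 genes of the basal forebrain and septum summed to 50.5 to 55.3 CPM in cKO and 50.2 to 54.3 CPM in control libraries. Their part in the levels of the Zic genes and Cbln1 was not tested.

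The genes whose levels most resembled those of Zic1, Zic2 and Cbln1 over the 8 libraries came from 13653 genes compared on log2(CPM + 1). For Zic1 these were Fig4 (Pearson's r 0.955, Spearman's rho 0.952), Brd3 (0.954, 0.952) and Mob4 (0.953, 0.833). For Zic2 they were Ppp3cc (r 0.95, rho 0.905), Mill2 (0.936, 0.976) and Aspn (0.935, 0.857). For Cbln1 they were Cemip2 (r 0.934, rho 0.667), Nedd9 (0.916, 0.881) and Erbb3 (0.912, 0.952). With the 2 libraries farthest from the median left out, r for Cemip2 with Cbln1 was 0.619, and r for the other 8 pairs lay between 0.793 and 0.962. These are the highest values out of many genes over few libraries that share depth and composition, and are given as a description.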

How the data were processed

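The deposited values are the authors' raw counts of reads for each gene in each library. The 5 entries that name no gene took 20.3% to 36.2% of the listed reads and were left out. HISAT2 and the build GRCm39 are named in the submitters' processing notes, without versions. How reads were assigned to genes, by strand or not and with which annotation, is not given in the sources used here. Groups and replicate numbers came from the sample titles. Of 57186 gene identifiers, 51880 matched a symbol. Transcript lengths, exon overlaps and GC content came from GENCODE M21 on GRCm38, so that no gene coordinates are given for the authors' build; promoters are RefSeq sequences on GRCm38.p6.

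Levels are CPM on library totals in genes. The test was edgeR 4.0.16 (filterByExpr, TMM, robust quasi-likelihood, group only) in R 4.3.3, over 16766 genes with Benjamini-Hochberg adjustment and a threshold of 0.05. Single genes were also compared by exact permutation of the 70 assignments. Depth limits the low genes: at under 3 CPM, counting alone gives a CV of 12.4% to 47.1%.

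Alternatives were DESeq2 1.42.0, its size factors in edgeR, library totals, 2 other filters, limma 3.58.1 voom, GC-content offsets by loess (span 0.5), the replicate number as a block, and libraries left out. Leaving out control replicate 2 with cKO replicate 4 was added after seeing the data. The members, lists and tests were chosen with earlier results of these data known. All 10 members were named, and up to 4 genes per list by highest level; Gabra6, Ppp1r17, Grid1, Cbln4, Zic5, En1, Fat4, Pet100, Chn2, Homer3, Lhx9 and Prkcd were named outside this rule, and some genes of the lists are not reported here. Genes resembling a member were named by the highest Pearson correlation for the 3 most abundant members.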

Additional observations from a re-analysis of the deposited data

Results flagged for a closer look

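Within each group of 4 libraries, the highest and lowest level of each of the 10 genes was compared with its nearest neighbour, relative to the range of the group. In 4 of the 20 groups a library stood apart by Dixon's criterion at 95%, where chance flags about 1 in 20. Cbln3 was flagged in both groups, for cKO replicate 4 at 3.94 CPM (next 0.8 CPM) and for control replicate 2 at 13.1 CPM (next 1.28 CPM). Zic4 was flagged for cKO replicate 4 at 8.97 CPM (next 8.45 CPM), where counting alone gives a CV of 8.07% among these libraries. Barhl1 was flagged for control replicate 3 at 2.03 CPM (next 1.11 CPM). Fat2 was not flagged in either group.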

How the results depend on the processing

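The count of cerebellar genes called stayed at 0 in each direction under all 18 alternatives, as did that of the companion genes. Of 163 log2 fold changes recomputed for single genes, 152 kept their direction and 11 turned, none past the threshold (lowest adjusted p 0.679). With 1 library left out, the ranges were -0.16 to 0.03 for Cbln1, -2.53 to 0.65 for Cbln3, -0.08 to 0.28 for Car8, -0.22 to -0.10 for Zic1, -0.11 to -0.0077 for Zic2, 0.04 (without control replicate 4) to 0.15 for Zic4, 0.02 to 0.50 for Barhl1 and -1.01 to 0.42 for Fat2. The turned values were 0.03 for Cbln1, 0.65 for Cbln3 and 0.42 for Fat2 without control replicate 2, and for Car8 -0.05 without control replicate 1, -0.08 without control replicate 4 and -0.0048 without cKO replicate 3. Without control replicate 2 and cKO replicate 4 together, Cbln1 stood at 0.03, Zic2 at 0.02 and Fat2 at 0.29. Without control replicate 1 and cKO replicate 1 together, Car8 stood at -0.04 and Barhl1 at -0.05. En2 stayed above 0 throughout (0.35 to 0.62 with 1 library left out), with an unadjusted p under 0.05 in 13 of 18 alternatives. Zic1 had one in 2 of 18 (p 0.0133 without cKO replicate 3 and p 0.0403 with no low-count filter, both from edgeR, adjusted p 0.827 and 0.737). The count called over all genes, 4, was 7 with no low-count filter, 2 by limma voom, 2 with the replicate number as a block, and 0 to 3 with 1 library left out (0 without control replicate 2 or without cKO replicate 2). With the block, 0 members passed and Cbln3 stood at -0.96. Equal numbers did not deviate together (r from -0.0466 to 0.0734 over 4 pairs), so the block is only an alternative. The median of the cerebellar genes relative to the cortical genes was 9.43% on CPM, against 11.7% per kb. The causes were not tested. Depth limits Pcp2, with 44 reads in all, most.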
